A study of Homo sapiens with 60 samples.

Results

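The genes described here are the 38 members of a hypoxia and glycolysis group, a list of gene symbols drawn up with earlier results of these data known; no measured value enters the rule itself. All 38 were found among the 60675 genes of the deposited table, and all 38 passed the filter on low counts that left 17256 genes for testing. They were measured in A549, an established human lung adenocarcinoma cell line, by directional RNA sequencing 24 h after treatment. The comparison asked of these genes was how each hot-water plant extract, at the doses labelled 500, 100 and 20 µg/mL, moved them against vehicle and between doses.

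All groups were A549 cells, and no label names a genetic change. The vehicle group had 3 libraries, given 0.1% DMSO by the sample labels, while the series description names 2% DMSO. Menthae Herba and Saposhnikoviae Radix were single herbs, and Guibi-tang, Saengmaek-san, Okbyeongpung-san and Soyo-san were multi-herb decoctions; each of these 6 had 3 libraries at each of 3 doses. Soshiho-tang had 1 library per dose, so its values carry no test. The series description says that an extract whose 20% inhibitory concentration was below 500 µg/mL was given at that concentration and at 1/5 and 1/25 of it. The labels print 500, 100 and 20 µg/mL for every extract, so which extracts this touched was not given. Nothing in the labels says whether replicates came from separate cultures, so p-values measure the spread between these libraries, which may be technical. The study's ethanol extracts and its wortmannin control were not analysed here.

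Cells sense oxygen through prolyl hydroxylases, here EGLN1 and EGLN3, which mark the alpha subunits of the hypoxia-inducible factors (HIF) for degradation while oxygen is present. When oxygen falls, HIF1A and EPAS1 (also called HIF-2 alpha) escape this, pair with a shared partner and raise genes for glucose uptake, glycolysis, lactate export, acid removal, mitophagy and blood vessel growth. Glycolysis splits glucose into pyruvate in the cytosol, and lung adenocarcinoma lines such as A549 run it at a high rate in normal oxygen as well. HIF alpha subunits are regulated mainly as proteins, so their transcript levels are only part of their activity.

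HIF binds the core letters ACGTG or GCGTG. These were searched on both strands in windows from 250 bases before to 50 bases after each RefSeq start (GRCh38.p14), in which 34 of the 38 members had an entry. VEGFA, SLC2A3, BNIP3L and NDRG1 had none. Of the 34, 31 had at least 1 match. By window, 42 of 58 member windows (72.4%) held a match, against 48.4% of all 35116 windows. The letters CACGTG, which contain ACGTG and are also bound by other factors, were in 13.8% of member windows and 7.26% of all windows. A match describes letters and not a binding site. The stretches below are from 4 members that were called at 500 µg/mL. Each lies before 1 RefSeq start, overlaps no annotated exon in GENCODE 29 and is inside the gene's GENCODE 29 span, which begins further upstream at another transcript. Each reads 5′ to 3′ on the gene's strand, and the capitals mark the match, which reads CACGT or CACGC where the core is on the opposite strand.
EPAS1, chr2:46297262-46297322, plus strand: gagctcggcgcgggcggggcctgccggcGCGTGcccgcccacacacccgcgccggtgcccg
PLOD2, chr3:146161298-146161358, minus strand: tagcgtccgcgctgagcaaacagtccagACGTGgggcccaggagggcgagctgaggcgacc
LDHA, chr11:18396200-18396260, plus strand: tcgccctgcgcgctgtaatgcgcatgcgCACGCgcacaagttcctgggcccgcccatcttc
TPI1, chr12:6868009-6868069, plus strand: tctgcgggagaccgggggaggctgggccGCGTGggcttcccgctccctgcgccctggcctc

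Levels are given as CPM, the count of a gene scaled to library size with edgeR's TMM factors. A gene is called changed where edgeR's quasi-likelihood test gave a Benjamini-Hochberg adjusted p under 0.05 over all 17256 genes of that comparison. Library totals ran from 18330592 to 35308791 counts. The epithelial keratins KRT8, KRT18 and KRT7 stood between 1733 and 3632 CPM in the 60 libraries, while PTPRC, CD3E, PECAM1, CDH5 and PDGFRB stayed at or below 0.373 CPM. The epithelial markers CDH1 (25.4 to 41.8 CPM) and EPCAM (3.66 to 6.36 CPM) stood far below the keratins. COL1A1 (26 to 39.8 CPM), COL3A1 (3.63 to 6.78 CPM) and CD68 (6.42 to 21.2 CPM) are also markers of fibroblasts or leukocytes, and they were present.

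The libraries fell into 2 stretches when taken in the order in which the series lists its samples. The first 31 were the vehicle, the single herbs and 10 of the 18 libraries made with Guibi-tang or Saengmaek-san, and the other 29 came later. The split was placed after these data had been seen, at the largest step in the first principal component (12.9% of variance, 80.2% of it at the split). Transcripts of mitochondrial DNA averaged 11.9% of counts (10.7 to 13.9%) before the step and 16.1% (12.9 to 22.2%) after it. The 38 members together took 2.02 to 2.14% of counts before it and 1.82 to 2.08% after. Estimated within the 2 decoctions that lie on both sides, the step called 22 of the 38 members (57.9%), 8 higher and 14 lower after it, against 43.7% of all genes. HIF1A was 0.27 higher on the log2 scale after the step. The low-count hexokinase HK2 (-0.44), the lactate exporter SLC16A3 (-0.43), the kinase PGK1 (-0.30) and the enolase ENO1 (-0.26) were lower. The herbs and the vehicle lie on 1 side of the step. Soyo-san and Okbyeongpung-san lie wholly on the other, so their calls against vehicle are set beside the fit with the step as a term in the model. That term takes its size from Guibi-tang and Saengmaek-san alone and assumes the same shift for the other extracts, which was not tested. In those 2 decoctions the step goes largely with the replicate number, the lowest lying before it and the highest after it.

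In vehicle cells the 6 most abundant members per transcript length were 5 glycolytic enzymes and LDHA, while other glycolytic enzymes such as ALDOC and ENO2 (10.4 ± 0.176 CPM per kilobase, SD, n = 3) were low. GAPDH, which makes NADH in the pathway's oxidation step, stood at 3535 ± 82.7 CPM per kilobase (SD, n = 3), followed by the last enzyme PKM at 1186 ± 10.9 and ENO1 at 946 ± 5.66. Next came the aldolase ALDOA (733 ± 0.547), LDHA, which turns pyruvate into lactate (714 ± 12.5), and TPI1 (712 ± 5.60), and these last 2 did not differ beyond their spread. HIF1A stood at 122 ± 0.581 CPM per kilobase and EPAS1 at 48.3 ± 1.62. Lowest on this per-kilobase scale were the hypoxia-inducible PDK1 (0.769 ± 0.0507), ALDOC (0.687 ± 0.151) and the second hexokinase HK2 (0.220 ± 0.0145). The place of PDK1 rests on the length used for its transcript, 14193 bases. Before scaling by length, PDK1 averaged 10.9 CPM in vehicle. That was above EGLN3 (9.81), MXI1 (8.31), PFKFB4 (5.64), CA9 (2.18) and ANKRD37 (1.13), as well as ALDOC (1.36) and HK2 (1.27).

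Across the 6 replicated extracts, at 500 µg/mL against vehicle and against 20 µg/mL, there were 36 calls in these 12 comparisons, 13 higher and 23 lower, on 16 of the 38 members. That is 7.89% of the members' 456 tests (2.85% higher and 5.04% lower), beside 2.25% of all tests in the same 12 comparisons (1.20% higher and 1.05% lower). The members were not set against genes of like level, so the part of abundance in this difference was not tested. The other 22 members were called in none, with changes at 500 µg/mL against vehicle between -0.36 and 0.51 on the log2 scale. All calls were small: the largest against vehicle was 0.69, for ALDOC, a gene with few counts. In bulk RNA, fewer cells of a kind and less RNA per cell cannot be told apart. The 6 comparisons against vehicle share the same 3 vehicle libraries.

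Without the filter on low counts, 16 of the 36 calls were lost, all with the same sign. Against vehicle these were CA12 (adjusted p = 0.138) and PKM (0.0524) with Menthae Herba, EGLN1 (0.303), TPI1 (0.122) and LDHA (0.071) with Guibi-tang, TPI1 (0.0863) and KDM3A (0.0684) with Soyo-san, and PLOD2 (0.0985) with Okbyeongpung-san. Between doses they were EGLN1 (0.255), BNIP3L (0.160), CA12 (0.059) and PLOD2 (0.554) of Menthae Herba, EPAS1 (0.0659) and CA12 (0.177) of Guibi-tang, and SLC2A3 (0.158) and HK1 (0.0807) of Soyo-san. With only the compared groups in the fit, CA12 with Guibi-tang against vehicle was also lost (adjusted p = 0.0505), as were EGLN1 (0.26), TPI1 (0.145) and LDHA (0.147).

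**Figure D1:**
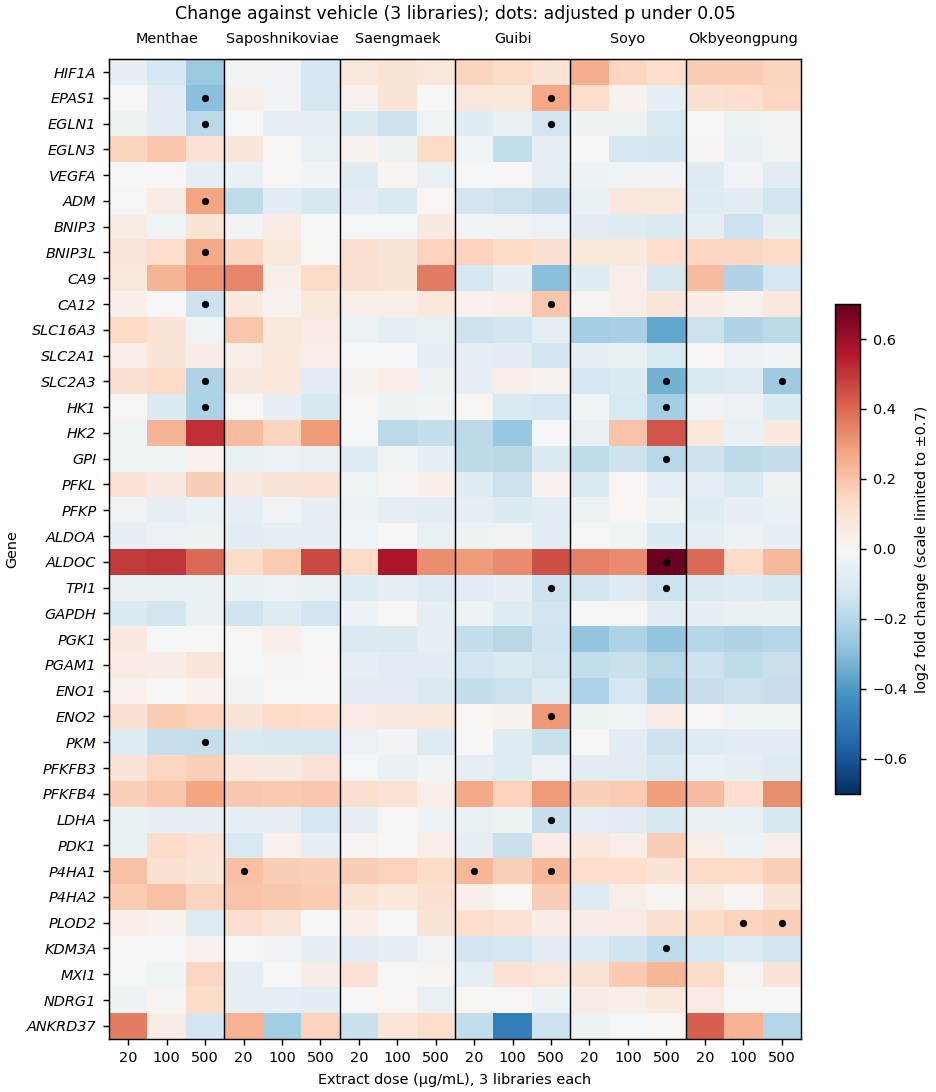
Heat map of the log2 fold change of the 38 genes (rows) against vehicle for 6 extracts at 3 doses (columns, µg/mL), 3 libraries against 3, red higher and blue lower, with dots at an adjusted p under 0.05. Most dots sit in the 500 µg/mL columns of Menthae, Guibi and Soyo, and ALDOC (highest change 0.69) is the deepest red.

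Menthae Herba, the leaf and stem of a mint, moved 8 members at 500 µg/mL: 2 rose and 6 fell, while 6.77% of all genes were called in that comparison (3.34% higher and 3.43% lower). The 2 that rose were ADM, which encodes the vasodilating peptide adrenomedullin, and BNIP3L, a receptor that marks mitochondria for removal. The 6 that fell were EPAS1, the oxygen sensor EGLN1, the membrane carbonic anhydrase CA12, the glucose transporter SLC2A3, the hexokinase HK1 and the pyruvate kinase PKM. The members' median change was 0.03 on the log2 scale, beside 0.00 over all genes. Members that HIF is known to raise went in both directions in the same cells.

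ADM (chromosome 11, 10304680 to 10307397 on GRCh38) read 47.7, 48.95 and 45.6 CPM in vehicle, 49.6, 47.2 and 47.04 at 20 µg/mL, 45.2, 49.8 and 52.7 at 100 µg/mL, and 57.6, 54.6 and 60.4 at 500 µg/mL of Menthae Herba. The 500 µg/mL libraries stood above all 9 others. The change against vehicle was 0.28 ± 0.06 (log2, SE; adjusted p = 0.00189).

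BNIP3L, on chromosome 8, read 54.7, 55 and 51.5 CPM in vehicle and 64.4, 67.2 and 62.2 at 500 µg/mL of Menthae Herba. The lower doses lay between, at 56.96 ± 1.11 CPM (SD, n = 3) for 20 µg/mL and 58.6 ± 1.35 for 100 µg/mL. The change at 500 µg/mL was 0.27 ± 0.05 (log2, SE; adjusted p = 0.000131).

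EPAS1 (chromosome 2, 46293667 to 46386703) moved the other way. It read 245, 259 and 244 CPM in vehicle, 248, 247 and 252 at 20 µg/mL, 243, 235 and 229 at 100 µg/mL, and 214, 205 and 191 at 500 µg/mL. The highest-dose group did not overlap any of the other 3, and EPAS1 fell by 0.29 ± 0.05 (log2, SE; adjusted p = 2.81e-05).

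HIF1A, the other alpha subunit, read 479, 476 and 480 CPM in vehicle and 400, 404 and 396 at 500 µg/mL of Menthae Herba. These groups were far apart, yet the fit over all 57 replicated libraries gave -0.26 ± 0.09 (log2, SE; adjusted p = 0.0908) and made no call. HIF1A was the member with the largest rise across the step, and in Saengmaek-san at 500 µg/mL its 3 libraries read 477, 466 and 574 CPM, the last one after the step. With the step in the model HIF1A fell, by 0.26 (adjusted p = 0.00474), and in the first 31 libraries alone it fell by 0.25 (adjusted p = 3.06e-08). Both of these are alternatives to the fit reported elsewhere in this text.

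EGLN1 (chromosome 1), the main oxygen-dependent hydroxylase of HIF, read 145, 144 and 148 CPM in vehicle and 128, 127 and 129 with Menthae Herba, and fell by 0.19 ± 0.04 (log2, SE; adjusted p = 0.00111). CA12 (chromosome 15), which helps buffer acid outside the cell, read 401, 404 and 401 CPM in vehicle and 374, 362 and 356 at 500 µg/mL, a fall of 0.15 ± 0.03 (adjusted p = 0.00252). For both genes no library of either group overlapped the other.

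The 2 called genes of glucose entry also fell. SLC2A3 (chromosome 12), a high-affinity glucose transporter, read 40.9, 41.2 and 41.4 CPM in vehicle and 34.8, 34.5 and 37.4 at 500 µg/mL, a change of -0.21 ± 0.05 (log2, SE; adjusted p = 0.0059). It stood higher at the lower doses of Menthae Herba, at 44.3 ± 2.45 CPM (SD, n = 3) for 20 and 45.2 ± 0.249 for 100 µg/mL. HK1 (chromosome 10), the hexokinase that traps glucose in the cell, read 84.8, 84.0 and 86.4 CPM in vehicle and 73.6, 74.9 and 70.3 at 500 µg/mL, a change of -0.22 ± 0.04 (adjusted p = 0.000198). HK2, the inducible hexokinase, read 1.26, 1.36 and 1.19 CPM in vehicle and 1.94, 1.80 and 1.69 at 500 µg/mL. These groups did not overlap, but its change of 0.51 was not called (adjusted p = 0.156).

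Of these 8 calls, SLC2A3 was lost without Menthae Herba 500 µg/mL replicate 1 (adjusted p = 0.0514) and PKM was lost without any one of the 6 libraries (adjusted p 0.0885 to 0.163). The other 6 were kept without each library in turn. In the first 31 libraries alone, where no step lies between the groups, 9 members rose and 8 fell with Menthae Herba, against 15.2% of all genes called. Among the added ones, the regulatory enzyme PFKFB3 rose by 0.17 (adjusted p = 7.78e-06), the phosphofructokinase PFKL by 0.18 (adjusted p = 0.00258) and the enolase ENO2 by 0.16 (adjusted p = 0.00685).

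The same direction was seen between doses of Menthae Herba, a comparison that uses no vehicle library. It shares its 500 µg/mL libraries with the comparison against vehicle, so the 2 are not independent. At 500 against 20 µg/mL, 2 members rose and 6 fell, with 2.43% of all genes called (0.898% higher and 1.54% lower). SLC2A3 (-0.32, adjusted p = 4.30e-05), EPAS1 (-0.29, 4.30e-05), HK1 (-0.24, 0.000121), CA12 (-0.18, 0.000205), EGLN1 (-0.15, 0.0171) and PLOD2, a lysyl hydroxylase of collagen (-0.12, 0.0435), fell on the log2 scale. ADM (0.26, adjusted p = 0.00656) and BNIP3L (0.18, adjusted p = 0.0204) rose. The calls of EPAS1, CA12, SLC2A3 and HK1 held without each library in turn. ADM was lost without Menthae Herba 500 µg/mL replicate 3 (adjusted p = 0.0795). BNIP3L was kept only without replicate 1 or 3 of the 500 µg/mL group (adjusted p up to 0.172 otherwise), EGLN1 only without replicate 2 of the 20 µg/mL group (up to 0.126), and PLOD2 was lost without any one of the 6 (0.0897 to 0.235).

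**Figure D2:**
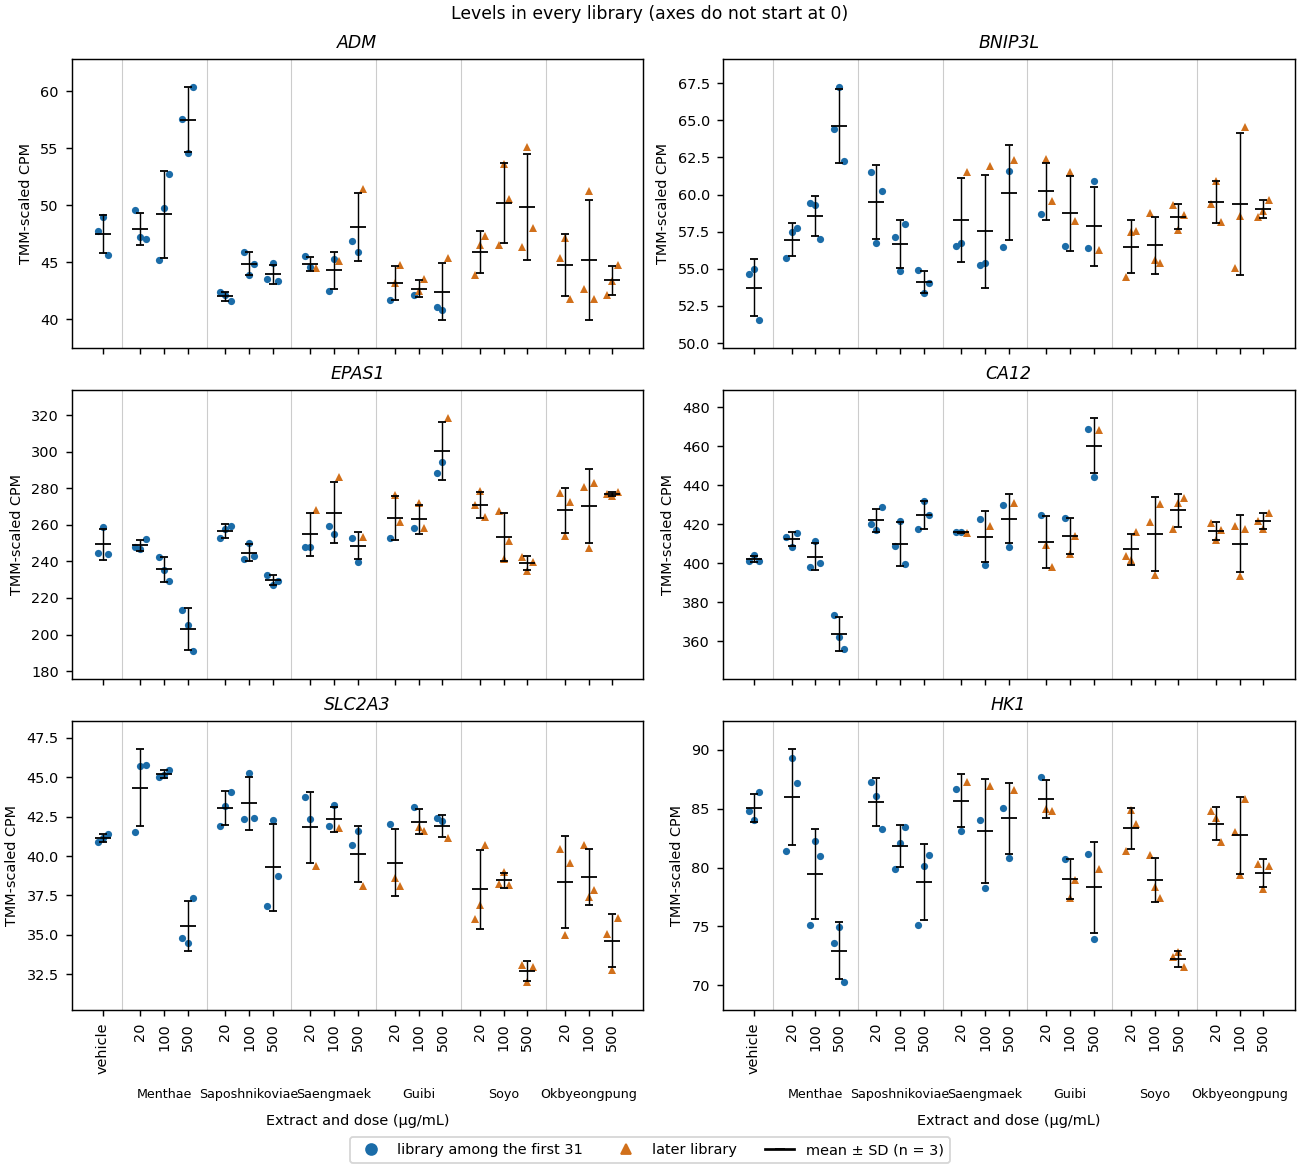
Scaled CPM of 6 genes in each of the 57 replicated libraries, by extract and dose (µg/mL), with black bars for the mean ± SD of 3 libraries; blue circles are the first 31 libraries and orange triangles the later ones. ADM and BNIP3L stand high and EPAS1, CA12, SLC2A3 and HK1 low at 500 µg/mL of Menthae, while EPAS1 and CA12 stand high at 500 µg/mL of Guibi.

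Saposhnikoviae Radix, the root of a plant of the carrot family, gave no member call at 500 µg/mL against vehicle (0 rose and 0 fell, with 1.56% of all genes called). Of the 38 members, 9 had an unadjusted p under 0.05, and DESeq2 made 0 calls as well. ADM read 43.6, 44.9 and 43.3 CPM, just below the vehicle libraries, and BNIP3L read 54.9, 53.4 and 54.1 CPM, inside their range. EPAS1 read 232, 227 and 229 CPM, all below vehicle, with a change of -0.12 ± 0.05 (log2, SE; adjusted p = 0.218). In the first 31 libraries alone, 3 members rose and 5 fell (9.39% of all genes called): the collagen prolyl hydroxylase subunits P4HA1 (0.16) and P4HA2 (0.18) and PFKFB3 (0.10) rose, and GAPDH (-0.13), HIF1A (-0.12), EPAS1 (-0.12), LDHA (-0.12) and PKM (-0.11) fell. At 500 against 20 µg/mL no member was called, with 0.0811% of all genes called, 5 members at an unadjusted p under 0.05 and 0 calls by DESeq2.

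Set directly against each other at 500 µg/mL, the 2 herbs differed in 5 members, with 1.47% of all genes called. ADM was 0.39 ± 0.06 higher (log2, SE; adjusted p = 4.25e-05) and BNIP3L 0.26 ± 0.05 higher (adjusted p = 0.000721) with Menthae Herba. NDRG1, a stress-responsive gene of chromosome 8, was 0.20 higher (adjusted p = 0.0148), at 52.7, 53.9 and 54.6 CPM against 47.05, 45.7 and 47.1. CA12 (-0.22, adjusted p = 1.21e-05) and EPAS1 (-0.18, adjusted p = 0.0439) were lower with Menthae Herba. The EPAS1 difference held only without Menthae Herba replicate 1 (adjusted p up to 0.388 otherwise), and NDRG1 was lost without Menthae Herba replicate 2 (0.0668) or 3 (0.0953) or Saposhnikoviae Radix replicate 2 (0.0748).

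Guibi-tang at 500 µg/mL moved 7 members against vehicle, 4 higher and 3 lower, with 4.42% of all genes called (2.63% higher and 1.78% lower). EPAS1, CA12, the neuronal-type enolase ENO2 and P4HA1, the catalytic subunit of collagen prolyl hydroxylase, rose. EGLN1, TPI1 and LDHA fell by small amounts. The median over the 38 was -0.06, beside -0.00075 over all genes. EPAS1 and CA12 had fallen with Menthae Herba and rose here.

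EPAS1 read 288, 295 and 318 CPM at 500 µg/mL of Guibi-tang, all above the vehicle's 244 to 259 and above the 253, 277 and 261 CPM at 20 µg/mL. Its change against vehicle was 0.27 ± 0.05 (log2, SE; adjusted p = 0.000136). The third of these libraries lies after the step, where EPAS1 was 0.09 higher; with the step in the model the change was 0.24 (adjusted p = 5.20e-05).

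CA12 read 469, 444 and 468 CPM, above every vehicle library and every lower-dose library of Guibi-tang, whose highest value was 425. The change was 0.19 ± 0.03 (log2, SE; adjusted p = 6.18e-05). ENO2 read 29.97, 29.3 and 29.01 CPM in vehicle and 38.1, 37.2 and 33.6 at 500 µg/mL, a change of 0.30 ± 0.07 (adjusted p = 0.00353). P4HA1 read 34.7, 34.6 and 34.6 CPM in vehicle and 42.7, 39.9 and 39.4 at 500 µg/mL, a change of 0.23 ± 0.05 (adjusted p = 0.00359), but it was already at 41.3, 40.97 and 39.99 CPM at 20 µg/mL.

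The 3 lower genes were less firm. EGLN1 (-0.13, adjusted p = 0.0432), TPI1 (-0.15, 0.0432) and LDHA (-0.16, 0.0421) each kept their call without only 1 of the 6 libraries: Guibi-tang replicate 1 for EGLN1 and TPI1, and Guibi-tang replicate 3 for LDHA. Otherwise their adjusted p ran up to 0.261, 0.171 and 0.215. With the step in the model, 6 members rose and 7 fell with Guibi-tang (10.0% of all genes called). PKM (-0.21), GAPDH (-0.19), ADM (-0.19) and HK1 (-0.13) were then added to the lower side, and P4HA2 (0.22) and the switch enzyme PFKFB4 (0.33) to the higher.

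Between 500 and 20 µg/mL of Guibi-tang, 3 members rose and none fell, with 0.997% of all genes called (0.748% higher and 0.249% lower). CA12 rose by 0.16 ± 0.03 (log2, SE; adjusted p = 0.00208) and kept its call without each library in turn. EPAS1 (0.19, adjusted p = 0.0287) kept its call only without Guibi-tang 20 µg/mL replicate 2 or 500 µg/mL replicate 1 (up to 0.139 otherwise). ENO2 (0.29, adjusted p = 0.0177) kept it only without 20 µg/mL replicate 1 or 500 µg/mL replicate 3 (up to 0.170 otherwise). Fitted with the 6 libraries of these groups alone, none of the 3 was called (adjusted p 0.52 to 0.684). Most of the 500 µg/mL libraries lie before the step and most of the 20 µg/mL libraries after it, where ENO2 was 0.21 lower. With the step in the model the rises were 0.22 for EPAS1, 0.16 for CA12 and 0.22 for ENO2 (adjusted p = 0.000655, 0.00123 and 0.00577).

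**Figure D3:**
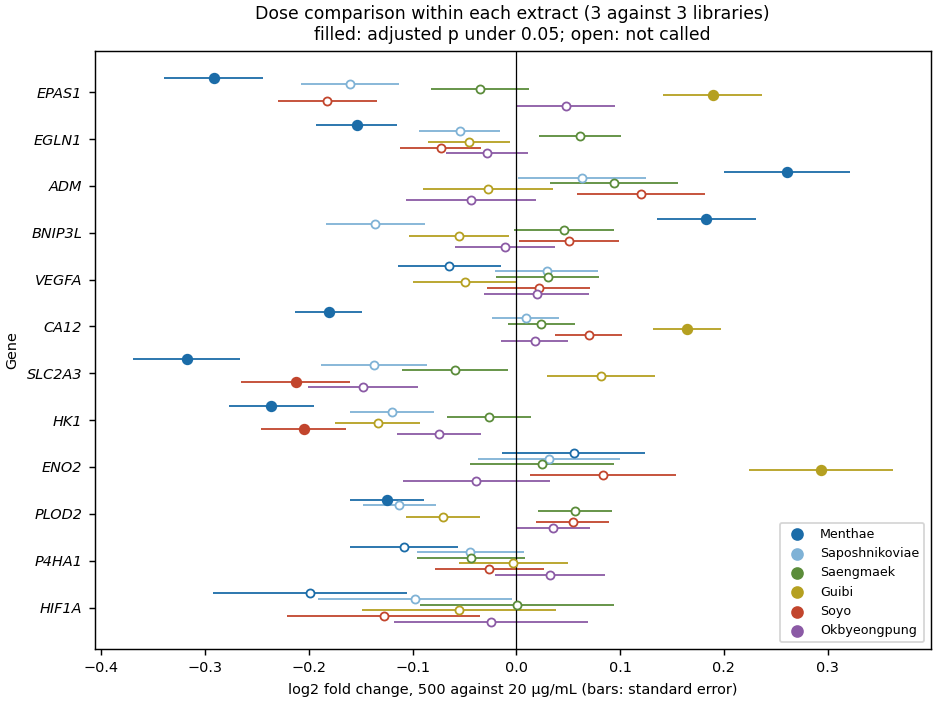
Log2 fold change of 12 genes at 500 against 20 µg/mL within each of 6 extracts, 3 libraries against 3; horizontal bars are standard errors and filled points have an adjusted p under 0.05. EPAS1 and CA12 lie on opposite sides of 0 for Menthae (-0.29 and -0.18) and Guibi (0.19 and 0.16), and VEGFA lies between -0.06 and 0.03 for all 6.

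Saengmaek-san at 500 µg/mL gave no member call against vehicle (0.614% of all genes called, 5 members at an unadjusted p under 0.05, and 0 calls by DESeq2). Between its doses no member was called, no gene of the 17256 was called (0%), DESeq2 called 0 members, and no member had an unadjusted p under 0.05. EPAS1 read 253, 240 and 253 CPM and ADM 46.8, 45.9 and 51.5 CPM at 500 µg/mL, both overlapping the vehicle libraries. Set against Guibi-tang at 500 µg/mL, Saengmaek-san was lower in EPAS1 by 0.27 ± 0.05 (log2, SE; adjusted p = 0.000257) and in CA12 by 0.12 (adjusted p = 0.0476), and higher by 0.65 (adjusted p = 0.0343) in CA9, another acid-handling carbonic anhydrase; 1.00% of all genes were called. CA9 was low in both, at 2.72, 2.74 and 3.01 CPM against 2.03, 1.67 and 1.65. The CA9 and CA12 calls each held without only 1 of the 6 libraries (Guibi-tang replicate 1 and replicate 2, in that order), with an adjusted p up to 0.214 and 0.33 otherwise.

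Soyo-san is a decoction that includes a mint herb. At 500 µg/mL, 1 member rose and 5 fell against vehicle, with 6.03% of all genes called (3.11% higher and 2.93% lower), and the members' median was -0.07 beside 0.01 over all genes. The 5 that fell were SLC2A3, HK1, the glucose phosphate isomerase GPI, TPI1 and KDM3A, a histone demethylase that HIF raises. ALDOC, a low-abundance aldolase, rose. All Soyo-san libraries lie after the step and all vehicle libraries before it, so each value was set beside the fit with the step as a term. The size of that term comes from Guibi-tang and Saengmaek-san, and whether it holds for Soyo-san was not tested.

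SLC2A3 read 33.1, 31.99 and 32.99 CPM at 500 µg/mL of Soyo-san, far below the vehicle's 40.9 to 41.4, and fell by 0.33 ± 0.05 (log2, SE; adjusted p = 2.17e-05). HK1 read 72.4, 72.9 and 71.5 CPM against 84.0 to 86.4 in vehicle, and fell by 0.24 ± 0.04 (adjusted p = 0.000122). With the step in the model both falls stayed, at -0.25 (adjusted p = 0.00161) and -0.26 (adjusted p = 0.000108). These are the 2 genes of glucose entry that also fell with Menthae Herba, in a comparison with the same vehicle libraries.

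The other 4 calls did not hold with the step in the model. GPI went from -0.20 (adjusted p = 0.0449) to 0.01 (adjusted p = 0.927), so its fall was no longer seen. ALDOC went from 0.69 (adjusted p = 0.0169) to 0.52 (0.112), TPI1 from -0.15 (0.0387) to -0.09 (0.247) and KDM3A from -0.18 (0.0204) to -0.06 (0.441). ALDOC read 1.70, 1.13 and 1.26 CPM in vehicle and 2.22, 1.97 and 2.38 with Soyo-san, and it was kept only without Soyo-san replicate 2 or vehicle replicate 1. GPI and TPI1 were lost without any one of the 6 libraries, and KDM3A without Soyo-san replicate 1 (0.0983) or 3 (0.133) or vehicle replicate 2 (0.139).

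The step term also added calls. With it, 6 members rose and 7 fell with Soyo-san at 500 µg/mL, with 11.7% of all genes called. PKM (-0.30), GAPDH (-0.23), LDHA (-0.22), ALDOA (-0.17) and EPAS1 (-0.16) fell besides SLC2A3 and HK1. HK2 (0.88), PFKFB4 (0.41), ENO2 (0.26), P4HA2 (0.17), PFKFB3 (0.14) and PLOD2 (0.13) rose. HK2 is a low gene, at 1.54, 2.24 and 1.38 CPM with Soyo-san, and its change without the step term was 0.44, not called.

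**Figure D4:**
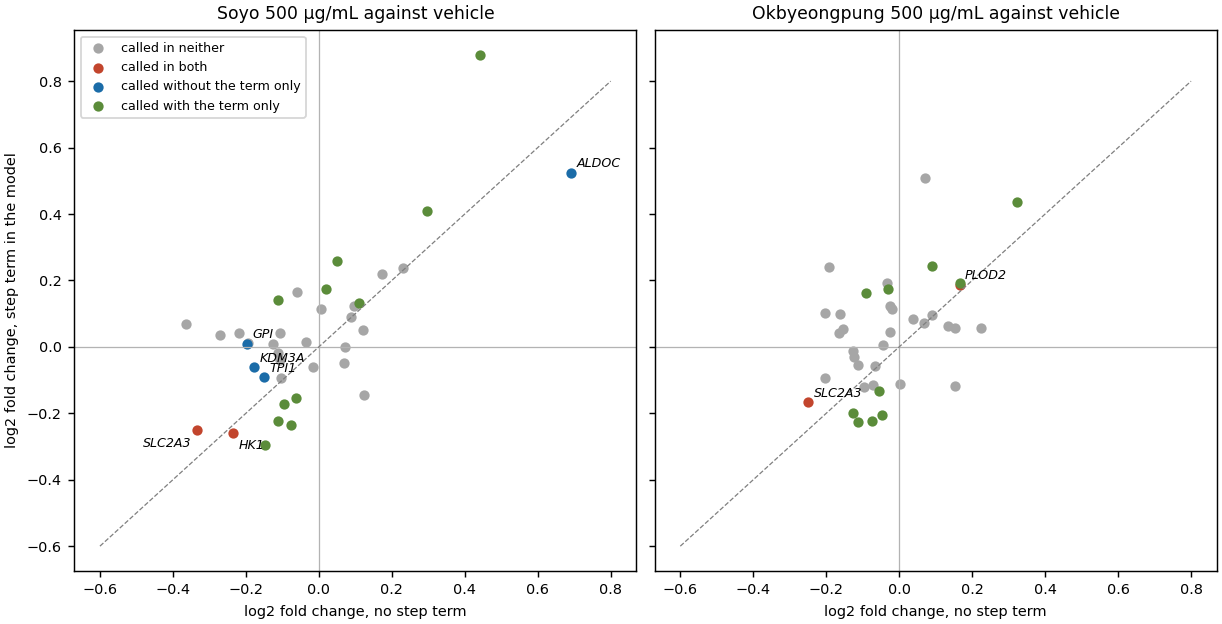
Log2 fold change of the 38 genes at 500 µg/mL of Soyo-san (left) and Okbyeongpung-san (right) against vehicle, 3 libraries against 3, without (horizontal axis) and with (vertical axis) a term for the step in library order; the dashed line marks equal values. SLC2A3 and HK1 stay low in both fits for Soyo-san, while GPI moves from -0.20 to 0.01.

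Within Soyo-san, where all libraries lie after the step, 2 members fell at 500 against 20 µg/mL and none rose, with 0.614% of all genes called (0.330% higher and 0.284% lower). HK1 fell by 0.21 ± 0.04 (log2, SE; adjusted p = 0.00325), from 81.4, 84.9 and 83.7 CPM to 72.4, 72.9 and 71.5, and kept its call without each library in turn, but not with only these 2 groups in the fit (adjusted p = 0.105). SLC2A3 fell by 0.21 ± 0.05 (adjusted p = 0.0406), from 36.01, 36.9 and 40.7 CPM, and kept its call only without 20 µg/mL replicate 1 (adjusted p up to 0.399 otherwise). SLC2A3 was also not called in the libraries after the step alone (adjusted p = 0.138).

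Okbyeongpung-san, which includes Saposhnikoviae Radix, moved 2 members at 500 µg/mL against vehicle, 1 higher and 1 lower, with 3.39% of all genes called (1.96% higher and 1.43% lower). SLC2A3 read 35.05, 32.8 and 36.1 CPM, all below vehicle, and fell by 0.25 ± 0.05 (log2, SE; adjusted p = 0.00229). PLOD2 read 268, 257 and 259 CPM in vehicle and 292, 303 and 284 with Okbyeongpung-san, a rise of 0.17 ± 0.04 (adjusted p = 0.00333). Both calls held without each library in turn and with the step in the model, at -0.17 (adjusted p = 0.0365) and 0.19 (adjusted p = 0.000965). The step term raised the number of calls to 6 higher and 6 lower, with 12.5% of all genes called.

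Between the doses of Okbyeongpung-san no member was called, with 0.0985% of all genes called, 2 members at an unadjusted p under 0.05 and 0 calls by DESeq2. EPAS1 was lower with Soyo-san than with Okbyeongpung-san at 500 µg/mL by 0.21 ± 0.05 (log2, SE; adjusted p = 0.0397), at 242, 235 and 239 CPM against 277, 276 and 278. It was the only member called in that comparison (0.133% of all genes called), and the call was lost without any one of the 6 libraries (adjusted p 0.146 to 0.276).

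VEGFA, the best-known HIF target and the signal for vessel growth, did not pass the test in any comparison of 500 µg/mL with vehicle or with 20 µg/mL. It read 34.3, 36.3 and 34.6 CPM in vehicle. At 500 µg/mL the 6 extract means ran from 33.4 CPM in Menthae Herba and Okbyeongpung-san to 34.7 in Soyo-san, and the log2 changes from -0.07 to -0.02. Among the 3 genes taken as markers of the group, ADM and BNIP3L rose with Menthae Herba while VEGFA did not pass the test (-0.07, adjusted p = 0.476).

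Among the remaining members named by the rule, SLC16A3, the main exporter of lactate in glycolytic cells, stood at 62.6, 61.3 and 67.9 CPM in vehicle and 43.6, 52.4 and 52.9 with Soyo-san at 500 µg/mL. This change of -0.36 was not called (adjusted p = 0.0809) and became 0.07 with the step in the model. PFKFB4 was above vehicle on average in all 6 extracts at 500 µg/mL, with log2 changes of 0.04 to 0.32 and no call in the fit without the step. With the step in the model its changes were 0.07 to 0.44, with 3 calls, all higher. MXI1, a MYC antagonist that HIF induces, read 7.85, 8.65 and 8.44 CPM in vehicle and 10.5, 8.81 and 10.1 with Soyo-san at 500 µg/mL, a change of 0.23 that was not called (adjusted p = 0.0803).

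A further 16 members had no call at 500 µg/mL against vehicle or against 20 µg/mL in the fit without the step. Over the 6 extracts against vehicle, log2 changes ran from -0.08 to -0.03 for the phosphofructokinase PFKP, from -0.10 to -0.04 for ALDOA, from -0.13 to -0.05 for GAPDH, from -0.13 to 0.05 for SLC2A1 and from -0.10 to 0.10 for the mitophagy receptor BNIP3. With the step in the model, where 9.05% of all tests were called, GAPDH ran from -0.23 to -0.05 and ALDOA from -0.17 to -0.04. In that model GAPDH had 4 calls and ALDOA 2, each of them lower. PGK1 (-0.27 to -0.0049), ENO1 (-0.22 to 0.02) and the mutase PGAM1 (-0.20 to 0.08) had their lowest changes in Soyo-san, and all 3 were lower after the step in library order. PFKL (-0.06 to 0.17), PFKFB3 (-0.11 to 0.16), P4HA2 (0.02 to 0.18), PDK1 (-0.06 to 0.17), NDRG1 (-0.07 to 0.13) and EGLN3 (-0.13 to 0.14) spanned similar widths. PFKL (-0.23), PFKFB3 (-0.25) and P4HA2 (-0.16) were also lower after the step. With the step in the model PFKL ran from 0.10 to 0.19, PFKFB3 from 0.04 to 0.16 and P4HA2 from 0.15 to 0.24. These had 1, 3 and 5 calls in that order, and NDRG1 had 1, all higher. CA9 (-0.29 to 0.36) and ANKRD37 (-0.20 to 0.16) are low genes, whose libraries ran from 1.37 to 3.47 CPM and from 0.281 to 2.01 CPM.

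By role, calls against vehicle at 500 µg/mL are counted over the 6 extracts, where 3.80% of all tests were called. The 12 glycolytic enzymes had 6 calls in 72 tests (8.33%): PKM with Menthae Herba, TPI1 and ENO2 with Guibi-tang, and GPI, TPI1 and ALDOC with Soyo-san. The Soyo-san calls of GPI, TPI1 and ALDOC did not hold with the step in the model. The 4 switch genes PFKFB3, PFKFB4, LDHA and PDK1 had 1 in 24 tests (4.17%), LDHA with Guibi-tang. The 4 genes of glucose uptake and phosphorylation had 5 in 24 (20.8%), all lower, on SLC2A3 and HK1, and SLC2A1 and HK2 had none. The 4 oxygen sensors and HIF subunits had 4 in 24 (16.7%), on EPAS1 and EGLN1. The 3 collagen-modifying enzymes had 2 in 18 (11.1%), both higher, on P4HA1 and PLOD2. Genes of pH control and lactate export had 2 in 18 (11.1%), 1 higher and 1 lower. The mitophagy receptors and the secreted peptides had 1 in 12 each (8.33%), both higher. The other hypoxia targets had 1 in 24 (4.17%), which was KDM3A with Soyo-san and did not hold with the step in the model.

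Lower doses gave few calls in the fit without the step. At 100 µg/mL against vehicle, 1 call was made over the 6 extracts, for PLOD2 with Okbyeongpung-san (0.15, adjusted p = 0.0146). Of all genes, 1.37% were called with Okbyeongpung-san, 0.974% with Menthae Herba, 0.666% each with Saposhnikoviae Radix and Saengmaek-san, 1.41% with Guibi-tang and 1.77% with Soyo-san. The PLOD2 call held with the step in the model (0.18, adjusted p = 0.00383) and was lost without Okbyeongpung-san replicate 3 (0.0873), vehicle replicate 2 (0.0949) or vehicle replicate 3 (0.0807). At 20 µg/mL, 2 calls were made, both P4HA1 and both higher. The share of all genes called was 0.382% with Menthae Herba, 0.452% with Saengmaek-san, 1.99% with Soyo-san and 1.09% with Okbyeongpung-san, none of which had a member called. The P4HA1 changes were 0.21 with Saposhnikoviae Radix (adjusted p = 0.0259; 0.991% of all genes called), lost without any one of its 6 libraries, and 0.23 with Guibi-tang (adjusted p = 0.00971; 1.35% of all genes called), lost without vehicle replicate 2 (0.0529). These counts depended on the fit. With the step in the model, members had 21 calls at 100 µg/mL (3.88% of all tests called) and 22 at 20 µg/mL (3.69%), and with only the compared groups in each fit, 10 (2.64%) and 23 (4.26%). The 3 vehicle libraries of P4HA1 lay within 34.6 to 34.7 CPM, and every group mean of the 6 extracts at 20 and 500 µg/mL was above them.

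Soshiho-tang was measured in 1 library at each dose, all after the step, so its values are descriptions. At 500 µg/mL, 18 members lay above and 16 below the range of the 3 vehicle libraries, while 73.2% of all genes lay outside that range. Of the 60 libraries, it was the highest for 7 of the 38 members and the lowest for 1, beside 6.69% and 4.81% of all genes. VEGFA read 52.7 CPM there, against 31.4 to 36.9 in the other 59 libraries. EPAS1 read 340 CPM (191 to 318 in the others), BNIP3L 70.3 (51.5 to 67.2), the glucose transporter SLC2A1 188 (148 to 183) and PDK1, which blocks pyruvate entry into the mitochondrial cycle, 15.0 (8.73 to 13.6). P4HA1 (43.6 CPM) and KDM3A (60.9 CPM) were also highest, and EGLN3 (7.40 CPM) was lowest. At 100 and 20 µg/mL VEGFA read 33.4 and 33.9 CPM, within the range of the other libraries. HK1 went the other way, with 70.9 CPM at 500 µg/mL and 83.4 and 81.9 at the lower doses.

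Other genes of the same pathways were taken from lists that hold no member. Of 26 other hypoxia-responsive genes, all tested, 5 rose and 1 fell with Menthae Herba at 500 µg/mL against vehicle. Guibi-tang raised 6 and lowered none, Saposhnikoviae Radix and Saengmaek-san raised 3 each and lowered none, Soyo-san raised 3 and lowered 2, and Okbyeongpung-san raised 3 and lowered 1. The share of all genes called against vehicle, given above for each extract, differed widely between extracts, so equal counts are not alike. HILPDA, which coats lipid droplets, rose with 5 of the 6 extracts, by 0.31 with Saposhnikoviae Radix, 0.25 with Menthae Herba, 0.23 with Saengmaek-san, and 0.18 with both Guibi-tang and Soyo-san. The transcription factor BHLHE40 rose with the 4 decoctions, by 0.45 with Guibi-tang, 0.41 with Okbyeongpung-san, 0.37 with Soyo-san and 0.32 with Saengmaek-san. BHLHE40 was itself 0.22 higher after the step (log2; adjusted p = 2.69e-10), and with the step in the model these rises were 0.37, 0.19, 0.15 and 0.25, each still called. With the step in the model 3 of the 5 Soyo-san calls on this list were lost, HILPDA (0.11, adjusted p = 0.262), DDIT4 and GBE1. The DDIT4 call with Okbyeongpung-san was lost as well. STC1, a secreted glycoprotein, fell by 0.64 (log2; adjusted p = 2.68e-05) with Menthae Herba.

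Of 15 other regulators of the HIF pathway, 14 were tested, and the only call at 500 µg/mL against vehicle was ARNT2, a HIF partner, with Soyo-san (0.22, adjusted p = 0.0042; 0.28 with the step in the model, adjusted p = 0.000572). Of 15 genes of pyruvate dehydrogenase and of pyruvate or lactate transport, Soyo-san lowered 3, which were MPC2 (-0.23), PDP2 (-0.22) and the lactate transporter SLC16A1 (-0.17), and Menthae Herba lowered 1, PDK4 (-0.39). None of the 3 Soyo-san calls held with the step in the model (-0.18, -0.16 and -0.10, adjusted p 0.0938, 0.106 and 0.0832). Other glycolytic isoenzymes (7 of 16 tested) had 2 calls, HKDC1 with Guibi-tang (0.49) and LDHB with Soyo-san (-0.35). LDHB was lower after the step (-0.33), and with the step in the model its change was -0.02 (adjusted p = 0.872). The 7 pentose phosphate genes had none. Genes of gluconeogenesis and glycogen (6 of 10 tested) had 2, PCK2 with Menthae Herba (0.45) and PYGL with Okbyeongpung-san (0.16; 0.11 with the step in the model, adjusted p = 0.0267). Among the 5 epithelial markers, KRT8 fell with Guibi-tang (-0.29), Menthae Herba, Soyo-san and Okbyeongpung-san (-0.27 each), KRT18 fell with Menthae Herba (-0.29) and Guibi-tang (-0.23), and CDH1 rose with Soyo-san (0.19). With the step in the model KRT8 still fell by 0.26 with both Soyo-san and Okbyeongpung-san, and CDH1 was not called (0.09, adjusted p = 0.418). Of the 9 markers of other cell types, 3 were tested, and COL1A1 rose by 0.39 with Menthae Herba. The part of these markers in the members' changes was not tested.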

How the data were processed

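Expected counts per gene were deposited by the authors as 1 table of 60 libraries. Per the submitters' processing notes, FastQC 0.11.9, Trim Galore 0.6.5, STAR 2.7.3a, RSEM 1.3.3 and hg38 (GRCh38) were used; the annotation release and the strand setting are not given in the sources used here. Per the labels' protocols, RNA had an integrity number over 7, and 100 bp paired reads were made. The 10.5% of values that were not whole were rounded. Symbols were assigned by Ensembl ID (3620 genes had none), and positions are from GENCODE 29.

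The 57 replicated libraries (19 groups) were fitted together in edgeR 4.0.16 (R 4.3.3) with TMM scaling and filterByExpr. Quasi-likelihood tests were adjusted by Benjamini-Hochberg within each of 31 comparisons, and the SE is the log2 change over the square root of F. The scripts were tested on simulated data. CPM were computed from these counts with the TMM factors. No 2 libraries agreed within sampling noise (chi-square per degree of freedom at least 1.88 over all pairs), so none was taken as a duplicate.

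The members and gene lists were chosen with earlier results of these data known. Genes described in full were, by rule, those called in most of the 12 comparisons of 500 µg/mL, up to 12 genes, then the largest change in each role and the 3 markers. HIF1A, NDRG1, CA9, GPI, KDM3A, PKM and LDHA were named outside this rule after their values were seen, as were the members given by a range. Values of some listed genes that are not members are not reported here. Alternatives were DESeq2 1.42.0, RLE scaling, no filter, mitochondrial genes left out, smaller fits, a replicate block, a step term and leaving out each library.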

Additional observations from a re-analysis of the deposited data

Results flagged for a closer look

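For 4 results, the change from 20 to 500 µg/mL differed between 2 extracts by a test of the difference itself, in edgeR's quasi-likelihood fit over all 57 replicated libraries.

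The BNIP3L change was 0.32 ± 0.07 higher (log2, SE; adjusted p = 0.0162) in Menthae Herba than in Saposhnikoviae Radix, with 0.197% of all genes called in that comparison. BNIP3L rose from 56.96 to 64.6 CPM with the dose of Menthae Herba, while its mean went from 59.5 to 54.1 CPM with that of Saposhnikoviae Radix. All 12 libraries lie before the step in library order. The call was lost without 4 of the 12 libraries, left out one at a time (adjusted p up to 0.106), which were Menthae Herba 20 µg/mL replicate 1, Menthae Herba 500 µg/mL replicate 2 and Saposhnikoviae Radix 20 µg/mL replicates 1 and 3.

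The other 3 come from Menthae Herba set against Guibi-tang, a comparison added after the data had been seen (0.997% of all genes called). The dose change was lower in Menthae Herba for EPAS1, by -0.48 ± 0.07 (adjusted p = 5.01e-06), for CA12, by -0.35 ± 0.05 (adjusted p = 1.69e-06), and for SLC2A3, by -0.40 ± 0.07 (adjusted p = 0.000654). EPAS1 and CA12 fell with the dose of Menthae Herba and rose with that of Guibi-tang, and SLC2A3 fell with Menthae Herba, while its mean went from 39.6 to 41.9 CPM with Guibi-tang and passed no test there. All 3 held without each of the 12 libraries in turn. The Guibi-tang libraries lie on both sides of the step.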

How the results depend on the processing

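Of the 36 calls at 500 µg/mL, 20 held without each library in turn and 16 did not. All 36 held under DESeq2, without the mitochondrial genes and with the replicate block, 35 under RLE scaling, 32 with the step term, 27 with only the compared groups in the fit and 20 without the filter on low counts. The counts that follow are members called. The cause of these differences was not tested.

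DESeq2 called 10 with Soyo-san and 4 with Okbyeongpung-san at 500 µg/mL against vehicle, 2 in all at 100 µg/mL, 7 in all at 20 µg/mL and 2 in the difference of dose changes between the herbs. Pooled over the extracts against vehicle, DESeq2 called 4.45%, 1.59% and 1.67% of all tests at 500, 100 and 20 µg/mL. Without the filter, the counts were 4 for Guibi-tang against vehicle, 5, 1 and 0 between doses of Menthae Herba, Guibi-tang and Soyo-san, 8 in all at 100 µg/mL, 9 in all at 20 µg/mL, 3 between the herbs and 1 between Saengmaek-san and Guibi-tang. The pooled shares of all tests without the filter were 2.03%, 1.40% and 1.34% at 500, 100 and 20 µg/mL against vehicle. With only the compared groups in the fit, they were 18 for Menthae Herba, 14 for Saposhnikoviae Radix, 3 for Guibi-tang, 12 for Soyo-san and 20 for Okbyeongpung-san against vehicle, where 18.9%, 13.6%, 1.51%, 13.3% and 17.8% of all genes were called. In that setting they were 1, 0 and 0 between doses of Saposhnikoviae Radix, Guibi-tang and Soyo-san, 10 and 23 in all at 100 and 20 µg/mL, 0 between Saengmaek-san and Guibi-tang and 2 in the difference between the herbs.

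The step term gave 14 for Menthae Herba, 3 for Saposhnikoviae Radix, 1 for Saengmaek-san, 13 for Guibi-tang, 13 for Soyo-san and 12 for Okbyeongpung-san at 500 µg/mL against vehicle, beside 12.2%, 5.80%, 2.18%, 10.0%, 11.7% and 12.5% of all genes. It gave 4 between doses of Soyo-san, 21 and 22 in all at 100 and 20 µg/mL, 2 in the difference between the herbs and 1 in that between Saengmaek-san and Guibi-tang, and GPI in Soyo-san became 0.00904. The libraries before the step alone gave 17 for Menthae Herba, 8 for Saposhnikoviae Radix and 13 for Guibi-tang, 1 between doses of Saposhnikoviae Radix and 2 in the difference between the herbs. The Guibi-tang count rests on replicates 1 and 2 at 500 µg/mL, as replicate 3 lies after the step, and its share of all genes is not given here. The libraries after the step alone gave 1 between doses of Soyo-san and 0 between Soyo-san and Okbyeongpung-san.

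Leaving out 1 library gave 0 to 1 calls for Saengmaek-san, 4 to 7 for Guibi-tang and 2 to 5 for Soyo-san against vehicle, 5 to 6, 1 to 3 and 1 to 2 between doses of Menthae Herba, Guibi-tang and Soyo-san, and 0 to 2 and 0 to 4 in all at 100 and 20 µg/mL. It gave 3 to 5 between the herbs, 1 to 2 between Saengmaek-san and Guibi-tang, 0 in each case between Soyo-san and Okbyeongpung-san, and 0 to 1 in the difference between the herbs. The shares of all genes called in these smaller sets are not given here, so the counts cannot be read against them.

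No 2 groups compared had a correlation of deviations over 0.1 in all 3 same-numbered pairs, so the numbers were not taken to pair samples. Between the 500 and 20 µg/mL groups of Saengmaek-san these were 0.08, 0.148 and 0.297, and all 3 libraries correlated best with their own number; in Saengmaek-san the number also goes with the side of the step, replicates 1 and 2 before it and 3 after. The replicate block gave 2 calls in place of 1 in the difference between the herbs, as did a block within the extract pair, added after the data had been seen.

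Low genes such as HK2, ALDOC, CA9 and ANKRD37, with as few as 6 counts in a library, are measured with less precision than the others.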
